A study of Mus musculus with 32 samples.

Results

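A set of 42 protein-coding genes was described whose transcripts took a large share of the reads in germinal vesicle (GV) oocytes and a small share in metaphase II (MII) oocytes. The set came from 37441 entries of the count table that name a gene, of which 21561 are protein-coding. They were chosen from measured values. Each had a mean of at least 20 CPM (the reads of a gene per 1000000 reads counted in its library) in 3 GV libraries of batch 2 that held little granulosa RNA, namely B6 replicate 1, D2 replicate 2 and F1 replicate 1. The mean in the 7 MII libraries of batch 2 was at most 0.25 of that GV mean. Of 5597 protein-coding genes at that GV level, 72 met the ratio, and 30 of the 72 were left out by symbol. Those 30 have symbols beginning with Rpl, Rps, Mrp, Nduf, Uqcr, Cox, Atp5, Psm, Snrp, Zp or Prdx, or are among Khdc3, Spc24, Gpx4 and Cpeb1. For the stage difference the 10 libraries that the rule read give a description and no test, and it was tested in the 18 libraries of batch 1, which the rule did not read. Strain differences were fitted in all 32 libraries, since the rule averaged over the strains, and are also given for batch 1 alone. For members under 20 CPM in a GV library of the rule, the fits of all libraries are not independent of the choice of members. The values below describe 40 of the 42 members.

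The series measured RNA in oocytes of inbred B6 and D2 females and of their B6xD2 F1 hybrid, all used at 8 to 12 weeks of age, at the GV stage (arrest in the first meiotic prophase) and at MII (arrest before fertilization). Each of the 32 libraries was a pool of 9 to 20 oocytes from 1 mother, with the zona pellucida removed in acid Tyrode's buffer. GV oocytes of every strain were collected in medium with IBMX, a phosphodiesterase inhibitor that holds prophase arrest, and the sources used here give no hormone treatment of the females. GV libraries numbered 5 for B6, 5 for D2 and 6 for F1, and MII libraries 6, 5 and 5, with 3 of each group in batch 1 and the rest in batch 2, which was sequenced on another HiSeq model. CPM is a share of a library, and RNA per oocyte was not measured, so fewer cells of a type and less RNA per cell cannot be told apart.

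Fully grown mouse oocytes make little or no new RNA, so maturation runs on stored transcripts. Some stored mRNAs gain poly(A) through a cytoplasmic polyadenylation element (CPE) near the poly(A) signal and are translated, while others are deadenylated, in mouse by the CCR4-NOT complex with its adaptor BTG4, and decay. Transcripts for housekeeping functions such as translation and mitochondrial metabolism are known to be among those that decline during mouse oocyte maturation.

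Libraries held between 18.7 and 39.7 M counted reads (median 28.1 M). The oocyte growth factor genes Gdf9 (2037 to 4580 CPM) and Bmp15 (1461 to 2986 CPM) were high in each of the 32 libraries. The summed level of 30 granulosa and cumulus markers was 839 to 2992 CPM in the 9 GV libraries of batch 1 and 329 to 527 CPM in its 9 MII libraries, with no overlap. It was 328 to 434 CPM in the 3 GV libraries of the rule and 342 to 521 CPM in the 7 MII libraries of batch 2. Of the 30 markers, 1 to 4 were at 0 in the GV libraries of batch 1, 3 to 18 in its MII libraries, 7 to 11 in the GV libraries of the rule and 6 to 9 in the MII libraries of batch 2. Foxl2, a transcription factor that defines granulosa cells, was at 0 in each of the 16 MII libraries, at 0 to 0.644 CPM in the GV libraries of the rule and at 0.799 to 13.1 CPM in the GV libraries of batch 1. The summed level of 20 stroma, endothelium and blood markers was 79.4 to 790 CPM in the GV libraries of batch 1, with 0 to 4 of them at 0, and 38.1 to 99.9 CPM in its MII libraries, with 10 to 13 at 0.

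The poly(A) signal is where the CPE would have to lie close by, so the stretch that holds it is shown for some members with large falls or from the oocyte list. Others of these, such as Dppa5a and Inhba, are not shown. Each stretch has 30 bases of the 3′ UTR, read 5′ to 3′ on the strand of the gene from GRCm38 with the GENCODE M21 transcript, and the capitals mark the poly(A) signal (AATAAA or ATTAAA). None of these members holds TTTTAT or TTTTAAT, the CPE letters searched on the strand of the transcript, in the 3′ UTR within 100 bases upstream of the signal. The 3′ UTRs of Upp1 (64 bases) and Fbxw24 (58 bases) are shorter than that, and bases before the 3′ UTR were not searched. The stretches are chr1:184871949-184871978 (minus strand) for C130074G19Rik, chr5:129881169-129881198 (minus) for Chchd2, chr11:9136126-9136155 (plus) for Upp1, chr11:54870454-54870483 (plus) for Hint1, chr19:9985053-9985082 (plus) for Fth1, chr9:109601128-109601157 (minus) for Fbxw24 and chr16:58635175-58635204 (minus) for Ftdc2.
C130074G19Rik: cctcccttgcctttgctgtaAATAAAagtt
Chchd2: tgtgattgtgagttaaaaaaAATAAAttgg
Upp1: agcctctgcaactcctgggcAATAAAtcta
Hint1: tcatttaaaattctgtgcctAATAAAagac
Fth1: taatttgtaccatttcttcaAATAAAgaat
Fbxw24: gtgtattcttcctcaatgatAATAAAggtc
Ftdc2: tatcctgagggtatgcatacATTAAAtttg

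The CPE was found within that distance in 2 members, and their stretches are shown with the CPE in capitals. In H2ax (chr9:44336027-44336056, plus strand) it overlaps the poly(A) signal ATTAAA, and in Grem1 (chr2:113746225-113746254, minus strand) the nearer of 2 matches starts 53 bases before the signal.
H2ax: ttaatgggctaaTTTTATtaaaggatcgtt
Grem1: ctgtaactagaaTTTTATtttcaccctaat

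In the libraries of the rule the members' GV means ran from 20.7 to 860 CPM with a median of 42.0, and the MII mean was a median of 0.169 of the GV mean. Just inside the ratio limit lay Tubb2a (0.2475), Eif1b (0.2482) and BC031181 (0.2483), and just outside it Tuba3a (0.2511), Mtx2 (0.2534) and Nop56 (0.2541). Just inside the GV limit lay Chmp2a (20.7 CPM), Hras (21.9 CPM) and Hint1 (22.2 CPM), and just outside it Ccnd2 (19.2 CPM), Tbcb (19.2 CPM) and Fkbp2 (19.6 CPM), which met the ratio. Of the 40 members, 19 belong to lists of oocyte and housekeeping functions, 2 are granulosa markers and 19 are in no list. All 40 passed the filter on low counts. In the 3 GV libraries of the rule, which are 1 of each strain, 8 members were under 20 CPM in 1 library and 3 in 2, and these 11 met the limit through the strains where they were higher.

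In batch 1 each of the 40 members was lower in MII than in GV. The members that fell most were C130074G19Rik, the granulosa genes Inhba and Grem1, Myocd, a coactivator of muscle genes, and Chchd2, a protein of the mitochondrial intermembrane space. All 40 were called lower in edgeR's quasi-likelihood test (Benjamini-Hochberg adjusted p from 1.34e-13 to 0.00359), against 28.5% of the 19265 genes tested and 11.3% of the 5597 genes at the GV level of the rule. The members' median log2 change was −1.84, beside −0.11 for all genes tested and 0.27 for genes at the GV level. Of the members 35 were at least 2-fold lower and 18 at least 4-fold lower, a size that 0.947% of the genes at the GV level reached. In 36 members each of the 9 MII libraries lay below each of the 9 GV libraries, which held for 10.2% of the genes tested and 5.61% of those at the GV level. The 4 members whose libraries overlapped were Pdcd5, Bfsp1, Mmadhc and Myocd. The ratio of the MII mean to the GV mean in batch 1 had a median of 0.254 and ran from 0.0013 to 0.519, and 20 members were at or below 0.25.

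**Figure D1:**
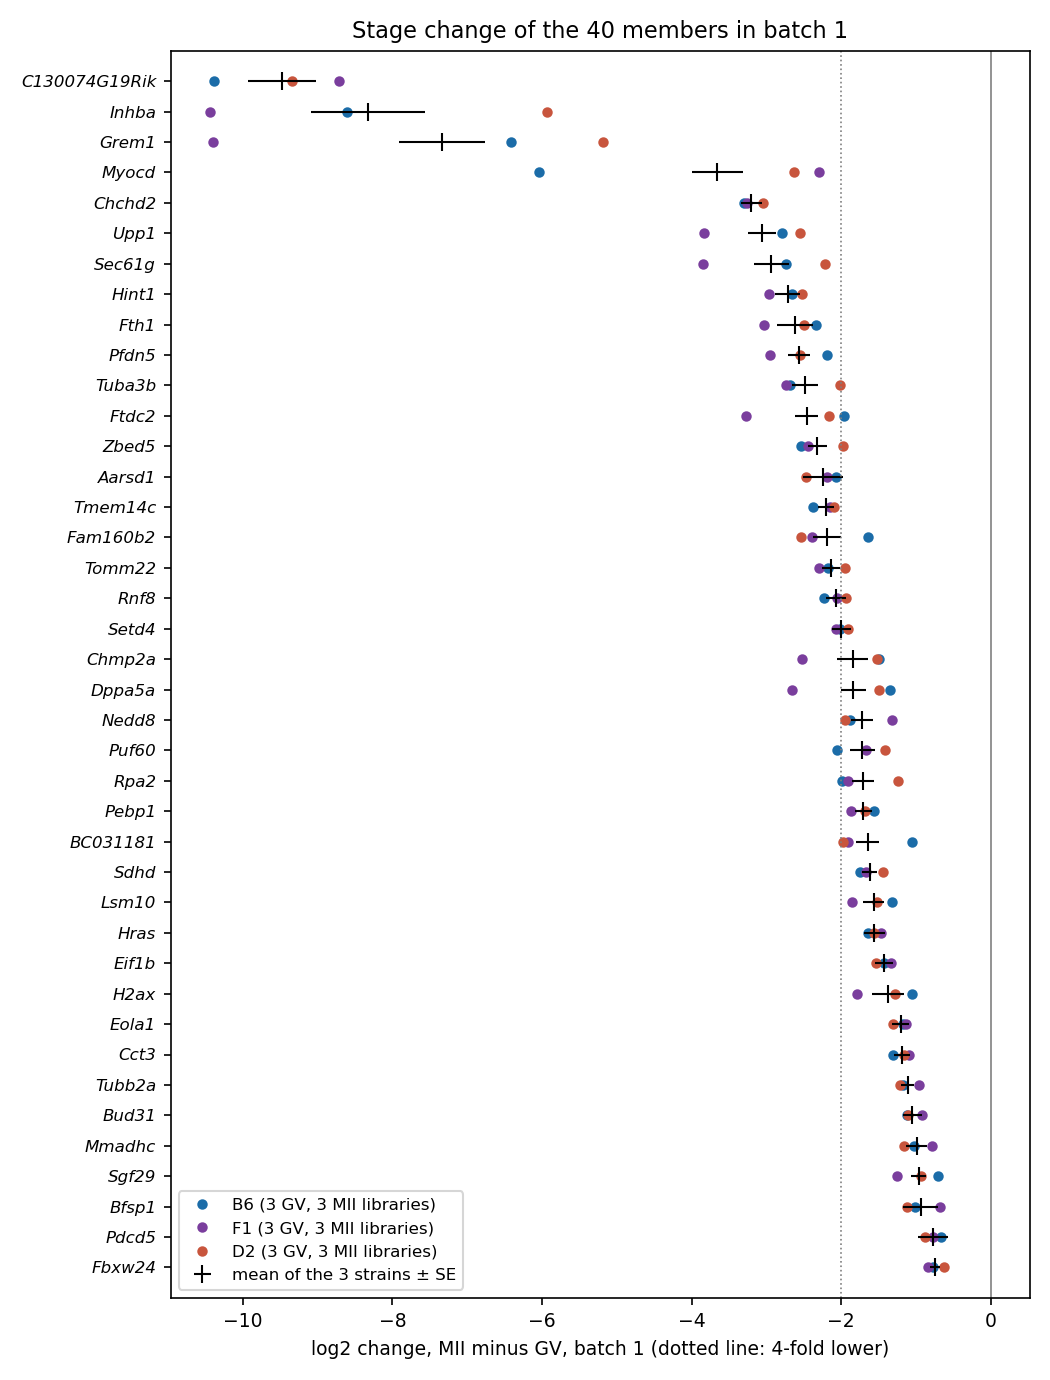
Log2 change from GV to MII in batch 1 (horizontal axis, log2 scale) for each of the 40 members (vertical axis, ordered by size), with a point for each strain (3 GV and 3 MII libraries each) and a black bar for the mean of the strains ± its SE. Every bar lies left of 0, from −9.48 for C130074G19Rik to −0.74 for Fbxw24, and the strains lie far apart in Inhba, Grem1 and Myocd.

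Among members of the oocyte list, Fbxw24, of an F-box protein cluster read in oocytes, had the highest GV level per length in the libraries of the rule, at 578 CPM per kb. In batch 1 Fbxw24 had 788, 813 and 900 CPM in GV (lowest, median and highest of 9 libraries) and 366, 416 and 502 CPM in MII. Its MII libraries stayed under all GV libraries and the change was the smallest of the 40, −0.74 on the log2 scale (SE 0.06, adjusted p = 5.60e-09). Ftdc2 had 341, 525 and 585 CPM in GV and 31.6, 82.0 and 143 CPM in MII, a log2 change of −2.46 (SE 0.15, adjusted p = 5.01e-11). Dppa5a, an RNA-binding KH-domain protein of pluripotent cells, had 72.8, 111 and 163 CPM in GV and 11.5, 24.5 and 51.6 CPM in MII, a log2 change of −1.84 (SE 0.17, adjusted p = 1.19e-08). The libraries of the stages did not overlap in either gene. Of the 90 genes of the oocyte list that were tested, 24 fell and 46 rose, and the list's median log2 change was 0.24, so these 3 moved against most of the list.

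Nedd8, a ubiquitin-like modifier of cullins, had 43.7, 53.2 and 75.7 CPM in GV and 9.26, 13.5 and 25.1 CPM in MII, a log2 change of −1.72 (SE 0.15, adjusted p = 4.67e-09). The stages did not overlap. Of 78 genes of the ubiquitin list tested, 28 fell and 18 rose, with a median log2 change of −0.09.

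The mitochondrial members fell without overlap. Chchd2 had 165, 230 and 304 CPM in GV and 14.4, 22.0 and 32.2 CPM in MII, a log2 change of −3.20 (SE 0.14, adjusted p = 1.34e-13). Tmem14c, needed for heme synthesis at the inner membrane, had 124, 151 and 184 CPM in GV and 18.2, 30.1 and 36.5 CPM in MII, a log2 change of −2.21 (SE 0.11, adjusted p = 8.05e-13). Tomm22, a receptor of the import pore of the outer membrane, changed by −2.14 (SE 0.12) and Sdhd, a membrane anchor of succinate dehydrogenase, by −1.62 (SE 0.10). Of 100 mitochondrial import and assembly genes tested, 59 fell and 7 rose, with a median log2 change of −0.67. Of 71 genes of energy and nucleotide metabolism, 42 fell and 13 rose, with a median of −0.77.

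Of the translation, folding and secretion members, Sec61g, a subunit of the channel into the endoplasmic reticulum, fell most. It had 80.8, 139 and 196 CPM in GV and 3.61, 14.4 and 31.6 CPM in MII, a log2 change of −2.94 (SE 0.23, adjusted p = 9.84e-09). Pfdn5, a subunit of the prefoldin chaperone that hands actin and tubulin on to the chaperonin, had 68.6, 91.5 and 117 CPM in GV and 6.77, 14.1 and 20.9 CPM in MII, a log2 change of −2.56 (SE 0.15, adjusted p = 1.19e-11). Cct3, a subunit of that chaperonin, had 65.6, 70.9 and 82.2 CPM in GV and 17.9, 28.3 and 33.5 CPM in MII, a log2 change of −1.19 (SE 0.11, adjusted p = 9.31e-09). Eif1b, a close relative of the start-codon selection factor Eif1, changed by −1.43 (SE 0.12), with 78.4 to 122 CPM in GV and 21.7 to 43.1 CPM in MII. None of the 4 overlapped between the stages. Of the lists they stand for, the translation factors had 25 lower and 13 higher of 58 tested (median −0.25), protein folding 27 and 9 of 53 (median −0.37), and secretion 35 and 23 of 99 (median −0.08).

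Fth1, the ferritin heavy chain that stores iron, and Hint1, a nucleotide hydrolase, stand for the redox and detoxification list. Fth1 had 55.6, 85.0 and 166 CPM in GV and 7.02, 12.4 and 26.9 CPM in MII, a log2 change of −2.62 (SE 0.24, adjusted p = 3.77e-08). Hint1 had 33.4, 68.5 and 105 CPM in GV and 2.97, 9.54 and 14.5 CPM in MII, a log2 change of −2.72 (SE 0.16, adjusted p = 1.39e-11). Neither overlapped, and of 49 genes of that list tested, 33 fell and 2 rose, with a median log2 change of −0.65. Of the RNA processing members, Lsm10, of the U7 particle that trims histone mRNA, changed by −1.56 (SE 0.14), and Bud31, a splicing factor, by −1.05 (SE 0.13). Of that list of 91, 35 fell and 23 rose, with a median of −0.16.

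Tubb2a, a beta-tubulin, had 156, 230 and 287 CPM in GV and 61.6, 92.1 and 112 CPM in MII, a log2 change of −1.11 (SE 0.08, adjusted p = 6.95e-10). Tuba3b, an alpha-tubulin in no list, had 19.8, 56.7 and 145 CPM in GV and 6.37, 7.56 and 14.9 CPM in MII, a log2 change of −2.48 (SE 0.17, adjusted p = 1.39e-10). The stages did not overlap in either, and of 73 microtubule and dynein genes tested, 27 fell and 26 rose, with a median of −0.03. Chmp2a, of the ESCRT-III membrane machinery, changed by −1.85 (SE 0.20), and 36 of the 77 vesicle and lysosome genes fell and 13 rose (median −0.28). H2ax, the histone variant phosphorylated at DNA breaks, had 212, 305 and 389 CPM in GV and 35.8, 80.8 and 186 CPM in MII, a log2 change of −1.37 (SE 0.21, adjusted p = 4.79e-05). Of 54 chromatin and histone genes tested, 21 fell and 18 rose, with a median of −0.05. The lists with no member were transcription machinery (24 fell and 18 rose of 77, median 0.03), actin cytoskeleton (30 and 7 of 52, median −0.60) and ribosome biogenesis (24 and 11 of 63, median −0.25).

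**Figure D2:**
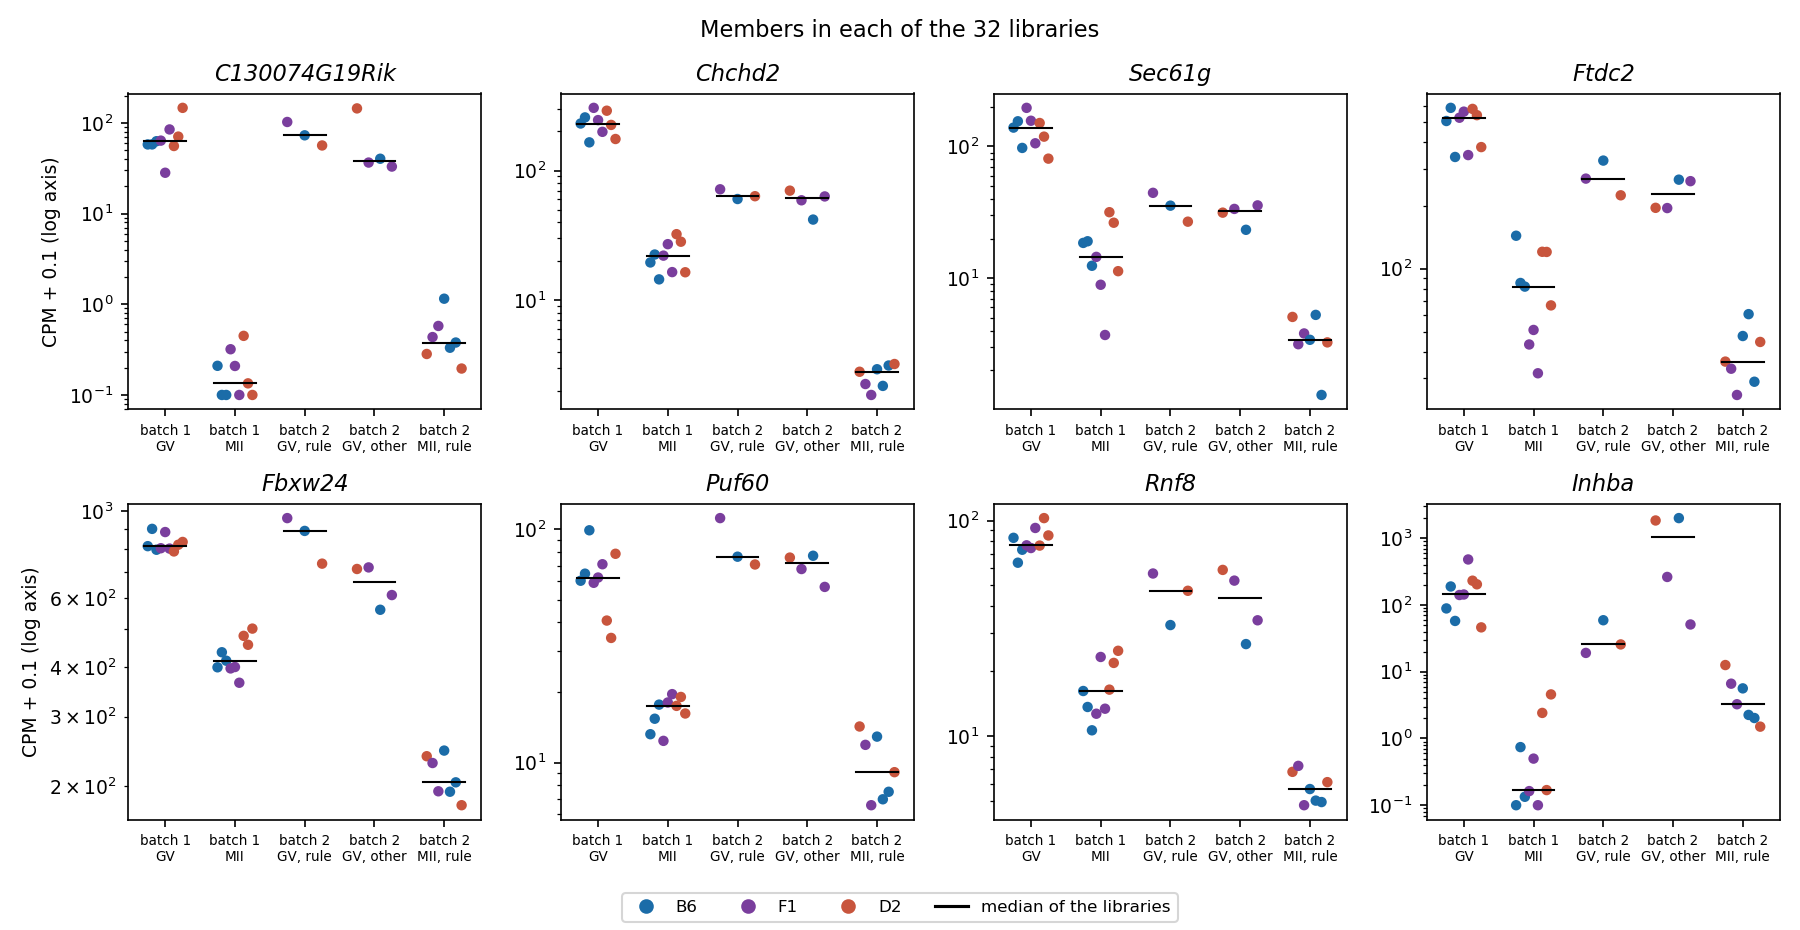
CPM + 0.1 (log axis) of 8 members in each of the 32 libraries, coloured by strain and grouped by batch, stage and use in the rule, with a bar at the median of each column. For Chchd2 the GV libraries of batch 1 lie at 165 to 304 CPM and its MII libraries at 14.4 to 32.2 CPM, and Inhba reaches 2003 CPM in a GV library outside the rule.

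The members in no list hold signalling, splicing and chromatin genes among others. Pebp1, an inhibitor of Raf kinase signalling, had 154, 180 and 226 CPM in GV and 34.3, 53.6 and 64.8 CPM in MII, a log2 change of −1.70 (SE 0.12, adjusted p = 1.02e-10). Puf60, a splicing factor, had 34.2, 62.1 and 99.1 CPM in GV and 12.3, 17.4 and 19.6 CPM in MII, a log2 change of −1.72 (SE 0.16, adjusted p = 2.56e-08). Sgf29, the reader of methylated histone H3 in the SAGA complex, changed by −0.96 (SE 0.09, adjusted p = 4.23e-08). These 3 did not overlap between the stages. Upp1, a uridine phosphorylase, had 77.0, 106 and 126 CPM in GV and 3.97, 9.76 and 20.6 CPM in MII, a log2 change of −3.06 (SE 0.18, adjusted p = 1.68e-11), again without overlap. The members in no list whose batch 1 levels are not given singly were Aarsd1, Eola1, Fam160b2, Hras, Mmadhc, Rnf8, Rpa2, Setd4 and Zbed5, and with BC031181 their log2 changes ran from −2.32 in Zbed5 to −0.99 in Mmadhc.

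C130074G19Rik, a gene with no descriptive name (chr1:184871926-184883218, minus strand), was chosen for description after its values were seen. It had 28.2, 62.9 and 147 CPM in the GV libraries of batch 1 and 0, 0.034 and 0.349 CPM in the MII libraries. In MII it had 0 reads in 4 of the 9 libraries and at most 11 reads in the others. Over these 9 libraries 3 reads, set here as an approximate upper limit for a count of 0, amount to 0.0849 to 0.110 CPM. The MII mean was 0.0013 of the GV mean, and the fitted log2 change of −9.48 (SE 0.46, adjusted p = 7.77e-12) depends on how counts near 0 are treated. In the MII libraries of batch 2, which the rule read, it had 3 to 36 reads.

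Pdcd5, a gene named for its induction in cell death, had the largest adjusted p of the 40. It had 44.6, 79.2 and 110 CPM in GV and 25.3, 37.1 and 72.4 CPM in MII, with 6 of 9 MII libraries under the lowest GV library, and a log2 change of −0.77 (SE 0.20, adjusted p = 0.00359). Myocd had 6.49, 22.8 and 102 CPM in GV and 0.037, 3.99 and 10.3 CPM in MII, a log2 change of −3.65 (SE 0.34, adjusted p = 4.28e-08), and 6 of 9 MII libraries lay under the lowest GV library. Within each strain the stages of Myocd did not overlap. GV and MII levels were 6.49 to 22.8 and 0.037 to 0.404 CPM in B6, 11.1 to 42.4 and 2.78 to 5.02 CPM in F1, and 37.9 to 102 and 8.18 to 10.3 CPM in D2. Bfsp1, a filament protein of the eye lens, had 0.128 to 126 CPM in GV and 0.0642 to 64.8 CPM in MII, a log2 change of −0.94 (SE 0.23, adjusted p = 0.00229). Its wide range followed the strain.

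The label of oocyte transcripts was not borne out for 2 members that are granulosa and cumulus markers, Inhba, which encodes the activin beta A subunit, and Grem1, a BMP antagonist of cumulus cells. Inhba had 46.1, 144 and 481 CPM in the GV libraries of batch 1 and 0, 0.068 and 4.47 CPM in its MII libraries, a log2 change of −8.33 (SE 0.77, adjusted p = 1.92e-06). In batch 2 Inhba had a median of 25.5 CPM in the GV libraries of the rule, none above 59.0 CPM, and 50.9 to 2003 CPM in the other 4, whose mean was 30.1 times as high. Grem1 had 4.36, 19.2 and 60.2 CPM in the GV libraries of batch 1 and 0, 0.036 and 2.35 CPM in its MII libraries, a log2 change of −7.33 (SE 0.58, adjusted p = 5.50e-09). Of the 27 granulosa markers tested, 20 fell and 2 rose with a median log2 change of −5.90, and of the 18 stroma, endothelium and blood markers tested, 15 fell and 0 rose, with a median of −5.12. In 38 of the 40 members the mean of the other 4 GV libraries of batch 2 was within 1.5-fold of the mean of the rule's GV libraries, and the exceptions were Inhba and Grem1 (2.38 times).

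The granulosa marker level moved with the stage in batch 1, where it did not overlap between GV and MII. With that level as a covariate all 40 log2 changes were still negative, with a median of −2.04, and 10 members were called lower (Tubb2a, Pebp1, Puf60, C130074G19Rik, Chchd2, Tmem14c, Setd4, Tuba3b, Upp1 and Aarsd1), against 0.679% of the genes at the GV level of the rule. In the libraries of the rule, where the marker sums of the stages overlapped, the median member had 36.2 to 46.6 CPM in the 3 GV libraries and 5.72 to 8.12 CPM in the 7 MII libraries, which is a description because the rule used these values. Overlapping sums do not show equal granulosa RNA. The marker Inha had 0.642 to 1.29 CPM in these GV libraries and 0 to 0.468 CPM in these MII libraries, without overlap. Lhcgr, Fshr and Cyp19a1 overlapped. Among the GV libraries of batch 1 the median member had 76.7 to 86.9 CPM while the marker sum ran over a range of 839 to 2992 CPM.

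**Figure D3:**
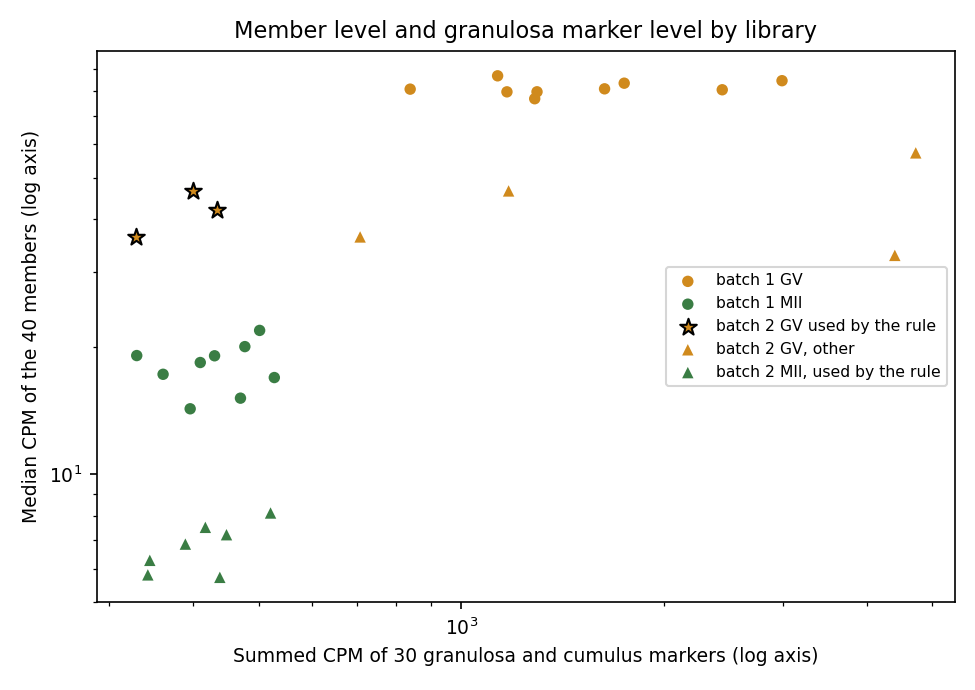
Median CPM of the 40 members (vertical, log axis) against the summed CPM of 30 granulosa and cumulus markers (horizontal, log axis) in each of the 32 libraries, marked by batch, stage and use in the rule. The 9 GV libraries of batch 1 lie in a flat band at 76.7 to 86.9 CPM of members. The 3 GV libraries of the rule overlap the MII libraries in the marker sum, though not in each single marker.

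The members' GV levels also differed between the batches. In 32 of the 40 the batch 1 GV mean was above the mean of the rule's GV libraries, and in 16 it was at least 2-fold above it, with a median ratio of 1.75. The share of other genes with such a ratio is not given here, so these counts are not read as a trait of the members. The rule's GV libraries are also those by which the members were chosen. The ratio was highest in Inhba, at 5.09, and Zbed5 (4.01) and Upp1 (3.98) followed. It was lowest in Bfsp1, at 0.554, and was below 1 also in Sgf29 (0.593), Pdcd5 (0.639), Puf60 (0.733), Tubb2a (0.737), Fam160b2 (0.799), C130074G19Rik (0.903) and Fbxw24 (0.961). Batch goes with the sequencer and its loading, and their parts cannot be told apart, so no stage difference was taken across batches.

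Within each strain of batch 1 nearly all members fell. In B6, 37 were called lower, against 13.4% of all genes and 6.47% of genes at the GV level, and Pdcd5, Bfsp1 and H2ax were not called. In F1, 39 were called lower, against 17.9% and 7.93%, and in D2 also 39, against 13.9% and 6.77%, with Pdcd5 not called in either. With the granulosa marker level as a covariate 8 were called in B6, 2 in F1 and 9 in D2. The shares above belong to the fit without the covariate. No share of all genes is given here for the counts with it, so they are not set against a background. Pdcd5 had log2 changes of −0.67 in B6 (adjusted p = 0.187), −0.77 in F1 (adjusted p = 0.108) and −0.88 in D2 (adjusted p = 0.0844). Median log2 changes were −1.92 in B6, −2.06 in F1 and −1.92 in D2.

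The difference of the stage change between strains passed the test in 0 of the 40 members. At an unadjusted p under 0.05 edgeR's test gave 1 member lower and 2 higher for D2 minus B6, 7 lower and 1 higher for F1 minus B6, and 6 lower and 0 higher for F1 minus D2, and DESeq2 and limma-voom called 0 as well. Of all genes 0.104%, 0.0311% and 0.026% were called in these comparisons at the adjusted threshold. No share of all genes is given here at the unadjusted threshold, so the unadjusted counts of members are not read as an excess. The smallest adjusted p was that of Myocd for D2 minus B6 (adjusted p = 0.209) and for F1 minus B6 (adjusted p = 0.324), and that of Grem1 for F1 minus D2 (adjusted p = 0.610). With no filter on low counts 2 members were called higher for D2 minus B6, 3 lower and 1 higher for F1 minus B6, and 6 lower for F1 minus D2. The share of all genes called without the filter is not given here, so these counts are not read as an excess either.

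In all 32 libraries, with batch as a term, the oocyte genes Ftdc2 and Dppa5a were lower in F1 than in either parent in MII. Ftdc2 had 43.4, 50.9 and 31.6 CPM in F1 MII of batch 1, 143, 85.3 and 82.0 CPM in B6 MII, and 120, 120 and 66.7 CPM in D2 MII, so that F1 lay below both parents. In batch 2 it had 33.2 and 24.9 CPM in F1, 47.6, 60.6 and 28.8 CPM in B6, and 35.9 and 44.6 CPM in D2, where F1 overlapped B6. Dppa5a had 15.8, 18.9 and 11.5 CPM in F1 MII of batch 1, 33.9, 24.5 and 41.0 CPM in B6 MII, and 50.9, 51.6 and 20.8 CPM in D2 MII, and F1 again lay below both parents. In the fit Ftdc2 was lower in F1 by −0.98 against B6 (SE 0.21, adjusted p = 0.00222) and by −0.95 against D2 (SE 0.22, adjusted p = 0.00345), with −1.31 and −1.23 in batch 1 alone and −0.64 and −0.48 in batch 2 alone. Dppa5a was lower by −0.82 (SE 0.21, adjusted p = 0.0124) and −1.08 (SE 0.22, adjusted p = 9.46e-04), with −1.12 and −1.36 in batch 1 alone and −0.49 and −0.55 in batch 2 alone. Neither passed in batch 2 alone. The titles of batch 2 carry 2 number prefixes, and its 2 F1 MII libraries have the first and its 3 B6 MII libraries the second, so within batch 2 this prefix and the difference of F1 from B6 in MII cannot be told apart. With a term for the prefix, added after the data were seen, F1 minus B6 was −0.94 in Ftdc2 (adjusted p = 0.0117) and −0.86 in Dppa5a (adjusted p = 0.0208). Dppa5a against B6 missed the threshold without F1 MII batch 1 replicate 5 (adjusted p = 0.0544).

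**Figure D4:**
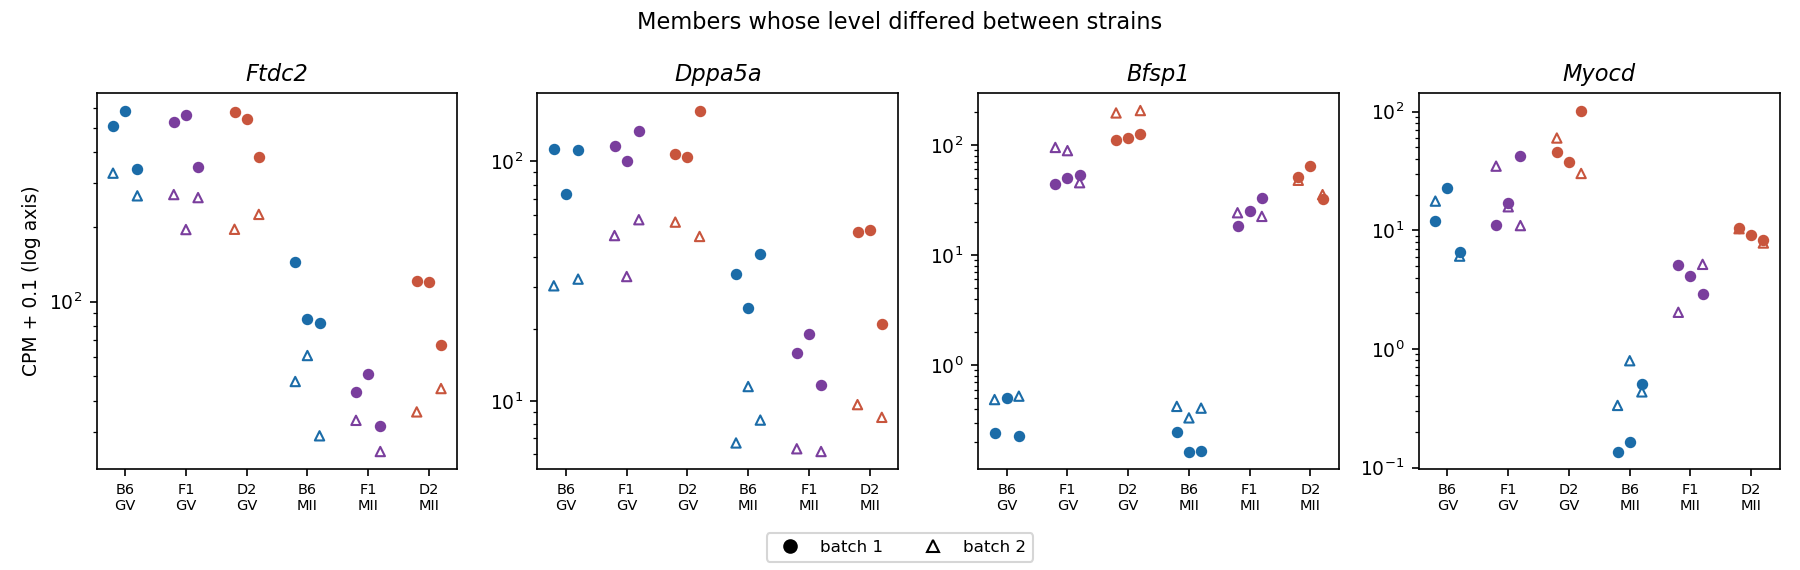
CPM + 0.1 (log axis) of Ftdc2, Dppa5a, Bfsp1 and Myocd in each library by strain and stage, with filled circles for batch 1 and open triangles for batch 2. In B6 the lens gene Bfsp1 lies under 0.5 CPM at both stages, while D2 GV libraries lie at 111 to 206 CPM, and the F1 MII libraries of Ftdc2 in batch 1 (31.6 to 50.9 CPM) lie below those of B6 and D2.

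Bfsp1 was nearly absent from B6. In GV it had 0.140, 0.400, 0.128, 0.387 and 0.423 CPM in the 5 B6 libraries, 111, 116, 126, 195 and 206 CPM in the 5 D2 libraries, and 43.9 to 94.9 CPM in the 6 F1 libraries. The 3 strains did not overlap and F1 lay between the parents. Its mean in the GV libraries of the rule came from D2 and F1, with 0.387 CPM in B6, so the fits that hold those libraries are not independent of the choice of Bfsp1. D2 minus B6 was 8.92 (SE 0.35, adjusted p = 2.41e-20) in GV and 7.99 (SE 0.32, adjusted p = 3.02e-20) in MII, with 9.08 (adjusted p = 2.48e-13) and 8.97 (adjusted p = 5.86e-13) in batch 1 alone. F1 minus B6 was 7.61 (SE 0.33, adjusted p = 1.81e-18) in GV and 7.09 (SE 0.31, adjusted p = 2.31e-18) in MII, with 7.74 and 8.07 in batch 1 alone. F1 minus D2 was −1.31 (SE 0.22, adjusted p = 5.58e-05) in GV, and −0.90 (SE 0.23, adjusted p = 0.00854) in MII, where it missed the threshold without D2 MII batch 1 replicate 3 (adjusted p = 0.0510) and in batch 2 alone. The B6 fall of Bfsp1, by counts near 0, was not called (−1.01, SE 0.61, adjusted p = 0.261), and its call in F1 (−0.68, SE 0.25, adjusted p = 0.0421) was lost without any 1 of 9 libraries.

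Myocd and the tubulin Tuba3b differed between the parents in opposite directions. In the GV libraries of the rule Myocd was under 20 CPM in B6 (17.5 CPM) and Tuba3b in D2 (16.6 CPM). The fits that hold those libraries are therefore not independent of the choice of these genes. Myocd in MII had 0.0366 to 0.696 CPM over the 6 B6 libraries, 1.94 to 5.07 CPM over the 5 F1 libraries and 7.72 to 10.3 CPM over the 5 D2 libraries, with no overlap between strains. D2 minus B6 was 4.93 in MII (SE 0.51, adjusted p = 2.66e-09) and 2.03 in GV (SE 0.44, adjusted p = 8.11e-04), and F1 minus B6 was 3.66 in MII (SE 0.50, adjusted p = 4.51e-06). In batch 1 alone D2 minus B6 was 5.67 in MII and 2.26 in GV. Tuba3b in GV had 41.4 to 145 CPM in B6, 25.4 to 81.7 CPM in F1 and 15.9 to 44.3 CPM in D2, and D2 minus B6 was −1.68 (SE 0.25, adjusted p = 2.45e-06), with −1.68 in batch 1 alone and −1.57 in batch 2 alone. In MII it was −1.05 (SE 0.24, adjusted p = 0.00111). Tuba3b and its near copy Tuba3a may share reads, as may Tubb2a and Tubb2b, so the levels of single tubulin genes are uncertain.

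Over the set, D2 minus B6 in GV called 3 members lower (Tubb2a, Tuba3b and Hint1) and 5 higher (Pebp1, Bfsp1, Setd4, Myocd and Grem1), 8 of 40 beside 20.5% of all genes. In MII it called 3 lower (Tubb2a, BC031181 and Tuba3b) and 6 higher (Bfsp1, Cct3, Rnf8, Zbed5, Myocd and Grem1), beside 26.4%. F1 minus B6 called Bfsp1 alone in GV, beside 5.5%, and 4 lower (Ftdc2, Dppa5a, BC031181 and Tuba3b) and 2 higher (Bfsp1 and Myocd) in MII, beside 7.36%. F1 minus D2 called 2 lower (Bfsp1 and Myocd) and 2 higher (Tubb2a and Tuba3b) in GV, beside 6.05%, and 4 lower (Ftdc2, Bfsp1, Dppa5a and Zbed5) and Tubb2a higher in MII, beside 8.11%. F1 minus B6 and F1 minus D2 share the F1 libraries, and D2 minus B6 shares its libraries with both. Bfsp1 and Myocd had met the GV limit of the rule through D2 and F1, and Grem1 through D2. Tuba3b and Hint1 had met it through B6 and F1. The strain calls of these genes in these fits are therefore not independent of the choice of members. In batch 1 alone D2 minus B6 in GV called Tubb2a, Tuba3b and Hint1 lower and Bfsp1, Myocd and Grem1 higher, and Pebp1 (adjusted p = 0.467) and Setd4 (adjusted p = 0.257) were not called. Hint1 was at −1.14 in batch 1 alone and −0.37 in batch 2 alone (adjusted p = 0.635). In D2 minus B6 in GV the calls of Grem1, Pebp1, Tubb2a, Hint1 and Setd4 were lost without any 1 of 6, 3, 2, 1 and 1 libraries, and in MII those of Grem1 and Rnf8 without any 1 of 6 and 1. The calls of BC031181 and Tuba3b in F1 minus B6 MII were lost without any 1 of 6 and 11 libraries, those of Myocd and Tubb2a in F1 minus D2 GV without any 1 of 17 and 27, and that of Tubb2a in F1 minus D2 MII without either of 2. The library behind the single losses was D2 GV batch 1 replicate 5 for Hint1, B6 GV batch 2 replicate 1 for Setd4 and D2 MII batch 1 replicate 4 for Rnf8.

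The members had short mRNAs, by the GENCODE M21 transcript of each gene. The median coding length was 567 bases beside 1668 in 5486 comparison genes, which had the GV level of the rule and an MII mean above 0.25 of it. A coding length under 600 bases was found in 22 members (55.0%) and in 8.33% of comparison genes. The median 3′ UTR had 295.5 bases beside 1266, and 24 of the 40 members and 18.7% of comparison genes had a 3′ UTR under 400 bases. Members had a median of 5 exons beside 11 and a GC content of 52.9% beside 48.4%. The shortest among members were Sec61g with 207 coding bases (chr11:16500530-16508484, minus strand) and Aarsd1 with 50 bases of 3′ UTR. The longest were Myocd with 2808 coding bases and Inhba with a 3′ UTR of 4492 bases. The 30 genes left out by symbol were also short, with a median coding length of 471 bases and a median 3′ UTR of 158 bases. Short mRNAs were therefore not particular to the members.

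**Figure D5:**
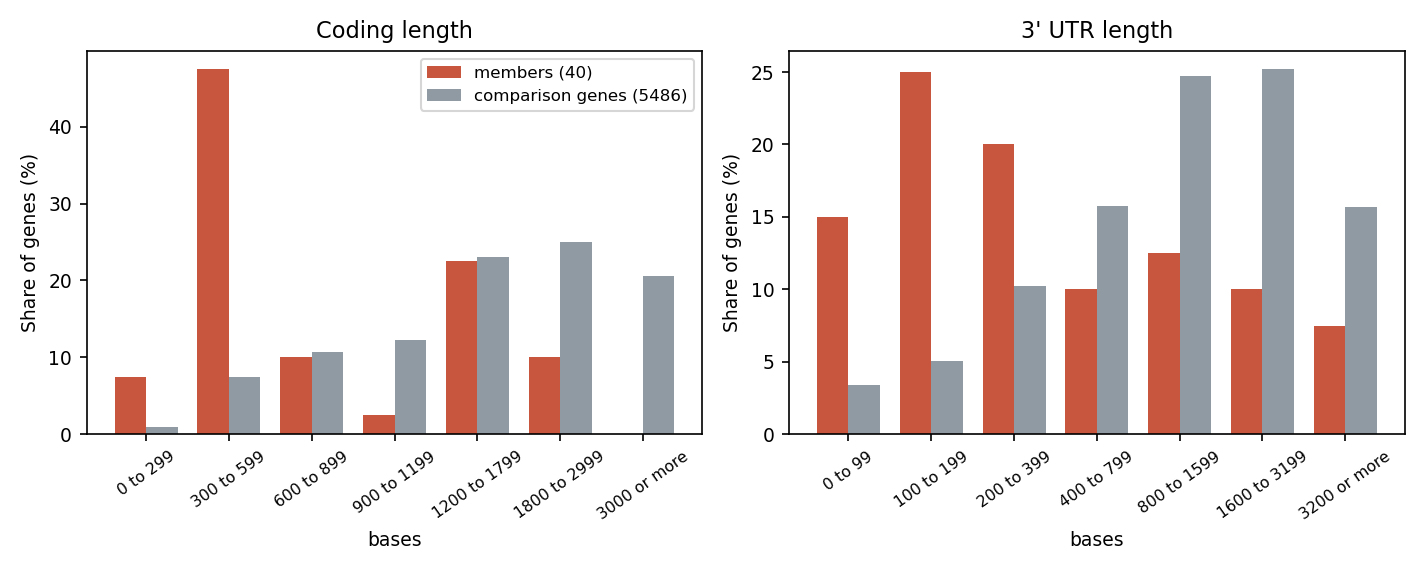
Share of genes (vertical, percent) by coding length and by 3′ UTR length in bases (horizontal, binned), for the 40 members and the 5486 comparison genes. Of the members 47.5% have 300 to 599 coding bases, beside 7.42% of comparison genes.

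A poly(A) signal lay in the last 40 bases of the transcript in 29 members (72.5%) and in 76.8% of comparison genes. The CPE letters TTTTAT or TTTTAAT were present anywhere in the 3′ UTR in 11 members (27.5%) and in 70.4% of comparison genes, whose 3′ UTRs are longer. Within 100 bases upstream of the poly(A) signal, or overlapping it, a CPE was found in 2 of 29 members (6.90%), H2ax and Grem1, beside 23.5% of 4215 comparison genes. Bases before the 3′ UTR were not searched. Where the 3′ UTR filled the 100 bases, a CPE was found in 8.33% of 24 members and 23.9% of 4077 comparison genes. Among genes with a 3′ UTR under 400 bases it was found in 0 of 18 members and in 22.6% of 694 comparison genes. Of 27 genes left out by symbol that had a poly(A) signal, 3.70% had a CPE near it. A match is a run of letters and was not shown to be used. Among comparison genes in batch 1, 24.9% of those with a coding length under 600 bases were called lower in MII and 8.77% of the longer ones, and 22.7% of those with a 3′ UTR under 400 bases beside 7.22% of the longer ones. With a CPE near the poly(A) signal 4.54% of comparison genes were called lower and 62.5% higher, beside 10.9% and 48.5% of those with a signal and no CPE near it.

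Of the members 8 overlap another annotated gene, 5 of them (Nedd8, Bud31, Sgf29, H2ax and Eif1b) on the opposite strand and 3 (Aarsd1, Pfdn5 and Rnf8) on the same strand, and whether the counting used strand is not stated in the labels. Their levels are uncertain to that extent. Fth1, Eif1b and Fbxw24 also have close copies in the mouse genome. Chchd2 (chr5:129881156-129887470, minus strand) and Zbed5 (chr5:129895723-129903623, plus strand) lie close to each other.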

How the data were processed

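The deposited table holds the authors' raw read counts per gene for the 32 libraries, with no normalization. Per the labels' protocols, RNA was amplified by SPIA and read as single ends. Per the submitters' processing notes, HISAT2, SAMtools, featureCounts of Subread 1.5.1 and DESeq2 1.16.1 were used with GRCm38.p4. Strand and multi-mapping settings are not given in the sources used here.

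Of 37444 entries 3 named no gene (at most 0.019% of a library) and were left out, and 36371 of the rest had a name in the RefSeq table. CPM were computed from the counts. Genes passed filterByExpr, were scaled by TMM and fitted with edgeR 4.0.16 (R 4.3.3, robust quasi-likelihood, 6 group means), in batch 1 alone for the stage and in all libraries with a batch term for strains. Tests were two-sided, adjusted by Benjamini-Hochberg over all genes within each of 13 contrasts and called at 0.05. The SE is the log2 change divided by the square root of F. The fit was tested on simulated data. Transcript features came from GENCODE M21, for 40 members, 5486 of 5525 comparison genes and the 30 genes left out by symbol.

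Alternatives were median-of-ratios and upper quartile scaling, other filters, DESeq2 1.42.0, limma-voom (limma 3.58.1), a replicate block, a granulosa covariate, a term for the title prefixes of batch 2 (added after seeing the data), other libraries, and each library left out. Intervals from counts cover counting error only. Named genes were, by rule, the members with the highest GV level in each list or in none, the 8 largest falls, those with the lowest adjusted p in strain contrasts, and those nearest the limits. Predicted genes were passed over. Of the 42 members, 2 are not reported here, and counts and medians over members leave them out. The members and lists were chosen with earlier results of these data known.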

Additional observations from a re-analysis of the deposited data

Results flagged for a closer look

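Among 240 sets of libraries (each member in each strain and stage) 11 held a library that stood apart from the others by Dixon's test, and chance flags about 1 in 20. Levels are in CPM. The granulosa marker Inhba had 2003 in B6 GV batch 2 replicate 2 (next 189) and 1846 in D2 GV batch 2 replicate 1 (next 231). Grem1 had 36.2 in B6 GV batch 2 replicate 2 (next 7.39) and 1.75 in F1 MII batch 2 replicate 1 (next 0.220). Fth1 had 26.9 in B6 MII batch 1 replicate 1 (next 8.35) and 166 in F1 GV batch 1 replicate 5 (next 75.8). In F1 MII batch 1 replicate 4, Upp1 had 9.76 (next 5.51) and Chmp2a 11.3 (next 4.77). Puf60 had 112 in F1 GV batch 2 replicate 1 (next 70.8), and C130074G19Rik had 1.05 in B6 MII batch 2 replicate 1 (next 0.279). Rpa2 was low at 28.8 in F1 GV batch 2 replicate 3 (next 65.5).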

How the results depend on the processing

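All 40 members were called lower in batch 1 under each other scaling and filter, DESeq2, the replicate block and each library left out (40 to 40), while limma-voom called 39. The fits of all 32 libraries and of batch 2 without the 3 GV libraries of the rule also called 40, but hold libraries by which the members were chosen and give no support. With the granulosa marker level as covariate the calls numbered 10 (8 in B6, 2 in F1 and 9 in D2), and the SE of Tubb2a was 0.38 instead of 0.08. With it the sign turned for Myocd in F1 (log2 change 0.28, adjusted p = 0.988) and for Inhba in D2 (0.0373, adjusted p = 0.998). Inhba is 1 of the markers in that level and was adjusted partly for itself, so its turn of sign says little. Leaving out each library gave 37 to 38 calls in B6, 37 to 39 in F1 and 38 to 40 in D2, and within strains the calls of H2ax in D2, Mmadhc in F1 and Bfsp1 in F1 were lost without any 1 of 4, 3 and 9 libraries.

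The strain difference in the stage change called 0 of the 40 members with each library left out and under the alternatives run other than no filter on low counts, which called 2 higher for D2 minus B6, 3 lower and 1 higher for F1 minus B6, and 6 lower for F1 minus D2. The share of all genes called without the filter is not given here.

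Strain counts were less stable, and the cause was not tested. D2 minus B6 in GV called 3 higher with the replicate block, with a term for the title prefixes of batch 2 (added after seeing the data) and in either batch alone, and 2 to 7 without 1 library (2 without B6 GV batch 2 replicate 1). F1 minus B6 in GV called 1 lower with limma-voom and in batch 2 alone, 2 higher with DESeq2 and in batch 2 alone, and 1 to 3 higher without 1 library. F1 minus D2 in GV called 1 lower with no filter, the replicate block and either batch alone, 1 higher with median-of-ratios or upper quartile scaling, no filter, DESeq2, the replicate block and the prefix term, and 0 higher in either batch alone, with 1 to 2 in each direction without 1 library. In MII, batch 2 alone called 1 lower for D2 minus B6 and 0 lower for both F1 contrasts. For F1 minus B6 in MII the replicate block and limma-voom gave 2 lower and leaving out libraries 1 to 4 (1 without F1 MII batch 1 replicate 5). For F1 minus D2 in MII, DESeq2 gave 2 higher and leaving out libraries 0 to 2. Replicate numbers gave no clear pairing of the libraries. Of same-numbered pairs across strains, 1 of 23 in batch 1 and 4 of 25 in batch 2 had a correlation over 0.1. Of those within a strain, 0 of 5 in batch 1 and 0 of 6 in batch 2 did. So few pairs cannot show that pairing was absent, and the replicate block is given here as counts alone. Among genes at 50 CPM or more, the median coding length was 696 bases in 16 members and 1816.5 in comparison genes, the 3′ UTR 234.5 and 1357.5, and a CPE near the signal was in 9.09% and 25.2%.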
